A study of Mus musculus with 8 samples.

Results

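The genes described here are those of Wnt signalling: the ligands, the proteins that secrete them, their receptors, the secreted antagonists, the R-spondin axis, β-catenin with its DNA-binding partners, and feedback genes. They were taken by name from the gene table, as every *Wnt*, *Fzd*, *Sfrp*, *Dkk* and *Rspo* gene plus 21 further genes listed by name, and 57 of the 20926 genes of the table met this rule. RNA-seq had been run on the mesenchyme of molars at PN day 3, from which the epithelium had been dissected away, to compare mice with and without *Ezh2* in the dental mesenchyme. *Ezh2* encodes the Polycomb enzyme that puts methyl groups on H3K27, a mark of silent genes. The 8 libraries came from 4 control and 4 *Osr2-Cre;Ezh2 fl/fl* (mutant) samples. Controls were Ezh2fl/fl and carried no Cre, mutants were Osr2KI-Cre;Ezh2fl/fl, and both were labelled strain C57BL/6, although the methods of the study speak of a mixed background. Cre was knocked in at *Osr2*, a gene of the dental papilla, dental follicle and alveolar bone, so that tooth epithelium keeps *Ezh2*. Since the Cre allele was present in the mutants only, its own effect and that of *Ezh2* loss cannot be told apart. The methods of the study give n = 4 per group. The labels do not say whether each library was 1 animal, and the p-values measure the spread between these 8 samples. Values are the deposited signal, which has no gene-length factor, and each library held between 48.3 and 68.8 M estimated reads.

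Wnt proteins are lipid-modified signals that bind a Frizzled receptor together with the co-receptor Lrp5 or Lrp6. Binding stops the Axin-based destruction complex from degrading β-catenin, which then enters the nucleus and activates genes with Tcf and Lef proteins. In teeth, Wnt signals pass between epithelium and mesenchyme from the first stages of tooth formation onwards, and loss of *WNT10A* in people is a common cause of missing teeth.

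*Ezh2* itself read 55.0 in control 1 and 38.3, 39.6 and 39.0 in the other controls. The mutants read 35.2, 30.1, 23.2 and 36.0, each under the lowest control (log2 fold change -0.46, limma adjusted p = 0.235; two-sided exact permutation p = 0.0286, the smallest that 4 samples against 4 can give). A value per gene also counts exons outside the floxed part, and cells without Cre keep the gene. *Osr2*, the locus of the Cre allele, which was looked at outside the rule for named genes, averaged 41.0 ± 6.88 (SD, n = 4) in controls and 48.6 ± 6.68 (SD, n = 4) in mutants, and the groups overlapped.

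Markers were read against the labelled tissue. Collagen genes of the mesenchyme were abundant in every library, with *Col1a1* highest at 5299 to 8735. Epithelial genes were present as well: the summed signal of 10 epithelial genes, of which *Krt5* was the most abundant, was 2404, 2975, 4127 and 4993 in controls 1 to 4 and 3106, 2168, 2891 and 2357 in mutants 1 to 4. Ameloblast genes, which encode the enamel matrix, were far less even. Their sum over 7 genes, led by *Amelx*, was 811, 2429, 15826 and 28715 in controls 1 to 4 and 1351, 871, 11512 and 738 in mutants 1 to 4. Controls 3 and 4 and mutant 3 thus stood apart from the other 5 libraries. In bulk RNA, fewer cells of a type and less RNA per cell cannot be told apart.

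Of the 57 Wnt genes, 53 had a signal of at least 1 in at least 4 libraries and were tested, and the 4 others were *Wnt3*, *Wnt8b*, *Dkk4* and *Rspo3*. The R-spondin receptor gene *Lgr6* and the transcription factor gene *Tcf7l2* rose in the mutants at a limma adjusted p under 0.05, and 0 genes fell. Among all 14854 genes tested, 1.56% were called higher and 0.512% lower by the same rule. At an unadjusted limma p under 0.05, 7 Wnt genes were higher and 5 lower, or 13.2% and 9.43% of the 53, beside 8.27% and 4.87% of all genes, and whether the Wnt genes differ from other genes as a group was not tested. Limma's voom on estimated reads also called 2 higher and 0 lower. The count of higher genes was 1 with a filter of 10, a replicate block, the *Amelx* or the *Xist* covariate and without any of 6 single libraries, and 3 without mutant 3. It was 0 in a pair of fits chosen after seeing the data, with 10 epithelial markers as a covariate and without controls 3 and 4 and mutant 3. Over all genes tested, these fits called 47 and 8 higher in turn, beside 232 in the main fit. Array weights called 11 higher and 16 lower, in a fit that called 2165 higher and 1875 lower of all 14854 genes tested. The *Amelx* covariate called 1 lower (*Dkk2*). Groups did not overlap for 4 of the 57 genes: *Lgr6* and *Tcf7l2* lay higher in all mutants, and *Fzd3* and *Wnt7b* lower. Over all genes of the table, 5.55% were separated in this way as higher and 2.65% as lower. The median log2 fold change of the 53 genes was -0.07, with 22 positive and 31 negative. Over all genes tested the median was 0.01, with 8032 positive and 6822 negative, or 54.1% positive. With the enamel genes *Amelx*, *Ambn* and *Enam* as covariate, the balance of the 53 Wnt genes turned to 28 positive and 25 negative (median 0.01). With 10 epithelial markers, an alternative chosen after seeing the data, it turned to 31 and 22 (median 0.10). Leaving out 1 library gave medians from -0.10 to -0.01.

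**Figure D1:**
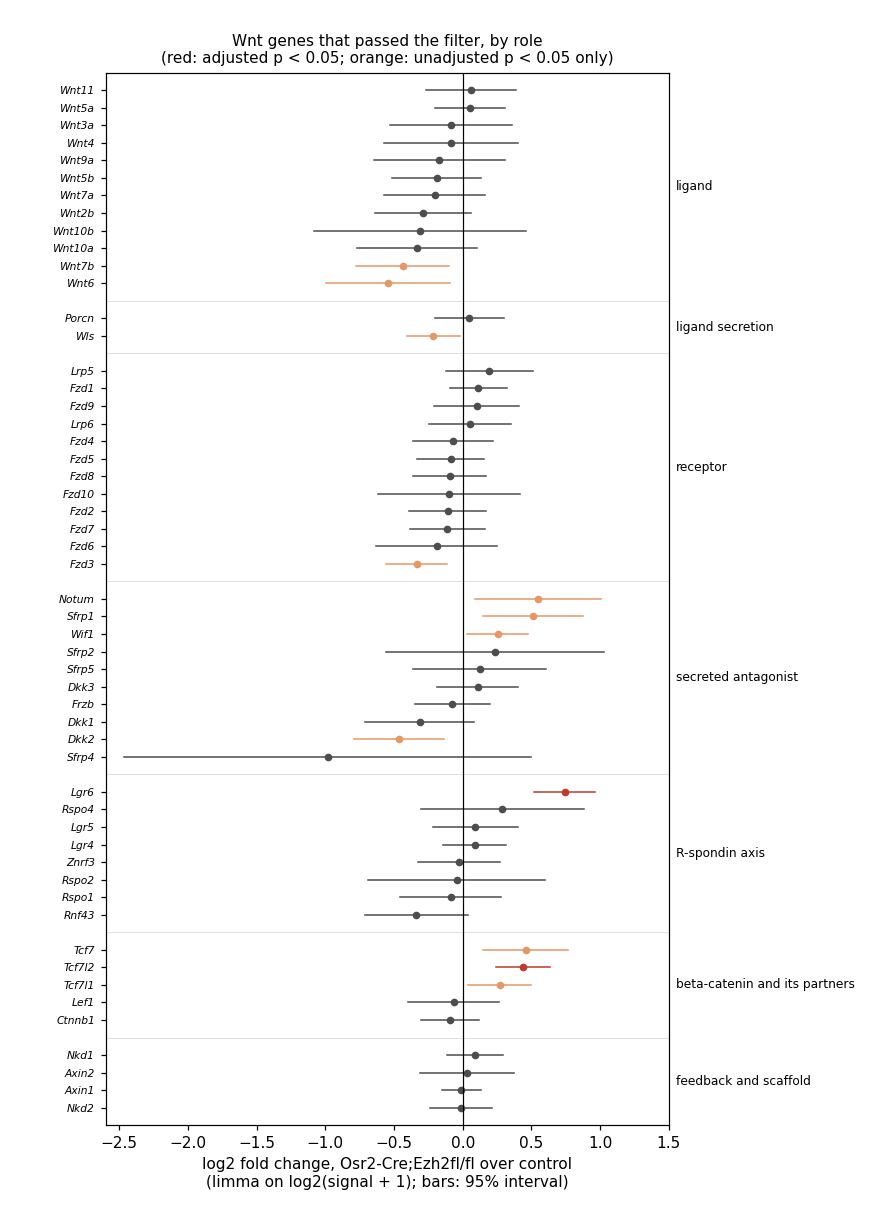
Log2 fold change of mutant over control (x axis, on the scale of log2(signal + 1)) for the 53 Wnt genes tested, grouped by role; points are limma estimates and bars 95% intervals over 4 and 4 libraries. *Lgr6* at 0.74 and *Tcf7l2* at 0.44 are the 2 genes past an adjusted p of 0.05, drawn in red, and the intervals of the ligands mostly span 0.

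Of 19 mouse *Wnt* genes, 14 had a row in the table, and *Wnt1*, *Wnt2*, *Wnt8a*, *Wnt9b* and *Wnt16* were not analysed here. Per kb of annotated exon, *Wnt6* (28.9), *Wnt10a* (21.6), *Wnt5a* (17.4), *Wnt4* (15.4) and *Wnt3a* (12.8) had the highest mean signal of the ligands over the 8 libraries. Those of *Wnt7a* (6.87), *Wnt5b* (2.62), *Wnt11* (2.24), *Wnt7b* (1.84) and *Wnt9a* (1.07) were lower, and *Wnt10b*, *Wnt2b*, *Wnt8b* and *Wnt3* were under 1 per kb.

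*Wnt6*, a ligand gene of the dental epithelium, read 57.0, 61.2, 85.3 and 98.7 in controls 1 to 4 and 52.3, 41.4, 67.7 and 43.4 in mutants 1 to 4. Controls 3 and 4 were the highest, and mutant 3 lay within the control range. The log2 fold change was -0.54 (SE 0.20; limma adjusted p = 0.271; exact permutation p = 0.114). *Wnt10a*, which lies 6193 bases from *Wnt6* on chromosome 1, read 41.1, 48.9, 75.1 and 76.0 in controls and 46.5, 41.9, 54.5 and 42.0 in mutants. Again controls 3 and 4 were highest, and all mutants lay within the range of the controls (log2 fold change -0.33, SE 0.20; limma adjusted p = 0.548).

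*Wnt7b*, another ligand gene of oral and dental epithelium, read 8.999, 9.45, 10.3 and 13.2 in controls and 8.83, 5.66, 7.96 and 7.50 in mutants. The groups did not overlap, but mutant 1 and control 1 nearly met (log2 fold change -0.44, SE 0.15; limma adjusted p = 0.223; exact permutation p = 0.0286). *Wnt5a*, the main ligand of β-catenin-independent signalling and a gene of the dental papilla, ranged from 121 to 144 in controls and from 112 to 163 in mutants. *Wnt4* ranged from 51.8 to 79.6 and from 44.5 to 90.3, and *Wnt3a* from 25.6 to 44.2 and from 24.96 to 41.2. For these 3 genes the mutants covered the control range almost entirely.

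Among the 12 ligand genes tested, 10 had a negative log2 fold change, and the median was -0.20. This held with median-of-ratios scaling and quantile normalization (10 of 12 in both), but with the enamel genes as covariate 7 of 12 were negative (median -0.05), and with the 10 epithelial markers 8 of 12 were positive (median 0.18). The median was -0.33 without control 1, -0.09 without mutant 2 and -0.12 with a pseudocount of 5. With array weights 11 of 12 were negative (median -0.34). Without controls 3 and 4 and mutant 3, 8 of 12 were negative (median -0.06). Control 4, which had the highest epithelial sum, was the highest control for 7 of the 12 ligand genes, and mutant 2, with the lowest epithelial sum, was the lowest mutant for 9 of 12. Control 1, which had the lowest epithelial sum of the controls, was the lowest control for 11 of 12. *Wnt5a* went the other way, with control 1 the highest control and mutant 2 the highest mutant. Whether these ranks are connected with epithelial RNA was not tested.

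All 10 epithelial markers had a negative log2 fold change, with a median of -0.43, and 0 of them were called (6 at an unadjusted limma p under 0.05). *Krt14* read 329, 428, 768 and 938 in controls and 542, 365, 637 and 381 in mutants. The order of its controls, with 4 highest and 1 lowest, was that of *Wnt6*. *Amelx* read 349, 1377, 9733 and 16250.4 in controls and 807, 376, 7818 and 316 in mutants. All 6 ameloblast genes tested were negative, none was called, and *Amtn*, a gene of later ameloblasts, stayed at or under 0.352 in all libraries. With the epithelial markers as a covariate the log2 fold changes were -0.07 for *Wnt6* (limma adjusted p = 0.870), -0.10 for *Wnt7b* (0.751) and 0.15 for *Wnt10a* (0.659). Without controls 3 and 4 and mutant 3, they were -0.37 (0.506), -0.31 (0.915) and -0.05 (0.9895) for the same genes in turn, and with the enamel genes as covariate -0.26 (0.170), -0.31 (0.353) and -0.07 (0.767). *Wnt10a* was at -0.21 without control 3 and likewise without control 4. The epithelial and enamel genes used as covariates were themselves lower on average in mutants. Fits with these covariates cannot tell epithelial RNA from an effect of genotype. The part of epithelial RNA in the ligand values was not tested.

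**Figure D2:**
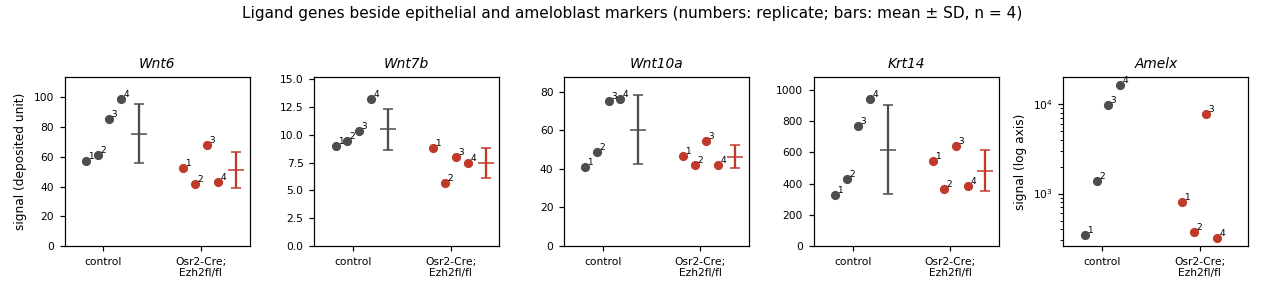
Signal in each library for the ligand genes *Wnt6*, *Wnt7b* and *Wnt10a*, the epithelial gene *Krt14* and the ameloblast gene *Amelx* (log axis for *Amelx* only); numbers give the replicate and bars the mean ± SD of 4 libraries. Controls 3 and 4 are the highest controls in all 5 plots, and mutant 3 the highest mutant in all but that of *Wnt7b*.

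Of the remaining ligand genes, *Wnt3* alone came near the floor of 3 reads. It had 1, 6, 12 and 15 estimated reads in controls 1 to 4 and 6, 2, 13 and 1 in mutants, and a difference was not detectable at this depth. *Wnt8b* had 26 to 41 estimated reads in controls and 119, 41, 61 and 52 in mutants, so that mutant 1 stood above the rest. Its signal was 0.429 to 0.642 in controls and 2.27, 0.637, 0.877 and 0.684 in mutants. Mutants 1, 3 and 4 thus lay above all controls (exact permutation p = 0.0571). *Wnt10b* was highest in control 3, at 4.83, against 0.834 to 1.60 in the other controls and 0.652 to 2.35 in mutants. *Wnt9a* ranged from 2.21 to 5.06 in controls and from 2.502 to 4.62 in mutants, and *Wnt2b* from 1.30 to 2.84 and from 1.19 to 1.82. The others also overlapped: *Wnt7a* at 18.8 to 29.1 and 15.3 to 24.6, *Wnt5b* at 6.08 to 8.56 and 4.97 to 7.54, and *Wnt11* at 6.29 to 10.3 and 8.61 to 9.97.

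*Wls*, which encodes the carrier that brings lipid-modified Wnt proteins to the cell surface, read 378, 403, 402 and 441 in controls and 364, 313, 389 and 337 in mutants. Mutant 3 alone lay above the lowest control (log2 fold change -0.21, SE 0.09; limma adjusted p = 0.317; exact permutation p = 0.0571). With the enamel genes as covariate it was -0.13, and with the epithelial markers -0.07. *Porcn*, whose product attaches the lipid, read 15.1, 17.7, 15.2 and 16.7 in controls and 19.0, 13.8, 18.6 and 16.0 in mutants, with the mutants on both sides of the controls (log2 fold change 0.05, SE 0.11; limma adjusted p = 0.928). Per kb of exon, *Wls* averaged 43.0 and *Porcn* 5.50.

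All 10 Frizzled genes and both co-receptor genes were tested. Per kb of exon, *Fzd7* (32.1) and *Fzd2* (24.2) had the highest mean signal, followed by *Fzd1* (16.7), *Fzd6* (11.7), *Fzd10* (11.1), *Lrp5* (9.94) and *Lrp6* (9.90). *Fzd5* (6.03), *Fzd3* (3.43), *Fzd4* (2.44), *Fzd8* (2.26) and *Fzd9* (0.737) were lower. *Fzd7* read 176, 148, 140.4 and 138 in controls and 127, 163, 117 and 153 in mutants, and *Fzd2* read 101, 89.9, 94.0 and 81.4 and then 87.4, 95.2, 65.1 and 94.5. In both, mutants lay below and within the control range, and mutant 3 was lowest (log2 fold change -0.11 for each, SE 0.12; limma adjusted p = 0.819 and 0.833). Over the alternatives they ranged from -0.37 to 0.05 for *Fzd7* and from -0.26 to 0.03 for *Fzd2*.

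*Fzd3*, a Frizzled gene known for planar cell polarity and axon guidance, read 47.9, 51.5, 50.6 and 45.9 in controls and 31.9, 41.6, 43.6 and 38.4 in mutants. Every mutant was below every control (log2 fold change -0.33, 95% interval -0.56 to -0.11; exact permutation p = 0.0286), yet the difference did not pass adjustment over all genes (limma adjusted p = 0.148). Over 23 alternative settings its log2 fold change stayed between -0.44 and -0.24, and 1 setting, array weights, took it past the threshold. *Gm27263* lies within *Fzd3* on the same strand, and reads of such overlapping genes cannot be separated here.

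For the other receptor genes the groups overlapped. *Fzd10* read 20.6 in mutant 3 and 37.4 to 41.8 in the other mutants, against 29.5 to 49.0 in controls. *Lrp5* ranged from 82.3 to 93.5 in controls and from 82.5 to 133 in mutants, and *Lrp6* from 119.7 to 149 and from 108 to 172, with mutant 2 highest in both. *Fzd1* ranged from 58.4 to 74.4 in controls and 66.4 to 80.9 in mutants, *Fzd5* from 39.9 to 47.5 and 35.7 to 49.3, and *Fzd6* from 44.7 to 78.0 and 41.5 to 72.3. The low receptor genes were *Fzd4* at 14.4 to 18.1 and 13.4 to 19.8, *Fzd8* at 12.1 to 16.7 and 11.5 to 14.7, and *Fzd9* at 1.26 to 1.96 and 1.23 to 2.26. Of the 10 Frizzled genes, 8 had a negative log2 fold change, also with median-of-ratios scaling and quantile normalization, with a median of -0.10. The number was 6 with the enamel genes or the epithelial markers as covariate and without mutant 3, and 5 with array weights, and the median was -0.03 with the enamel genes and -0.06 without control 4.

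*Wif1*, which encodes a Wnt-binding inhibitor, had the highest mean signal of the 11 antagonist genes per kb of exon (229), far above *Sfrp1* (40.7), *Notum* (39.4) and *Dkk3* (37.8). It read 501, 547, 501 and 475 in controls and 718, 599, 534 and 573 in mutants. Mutant 3, at 534, was the only mutant under the highest control (log2 fold change 0.25, SE 0.10; limma adjusted p = 0.309; exact permutation p = 0.0571). Without mutant 1 the difference was 0.17.

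*Sfrp1*, whose product carries a Frizzled-like domain and captures Wnt proteins, read 173, 149, 121 and 139 in controls and 157, 272, 201 and 209.7 in mutants. Mutant 1 lay among the controls, and the other 3 mutants lay above them (log2 fold change 0.51, SE 0.16; limma adjusted p = 0.179; exact permutation p = 0.0571), and with the epithelial markers as a covariate the difference was 0.12 (adjusted p = 0.688). *Notum*, a β-catenin target whose product removes the lipid from Wnt proteins, read 81.0, 84.6, 79.2 and 58.4 in controls and 137, 129, 70.3 and 119 in mutants. Mutant 3 was within the control range and the other 3 above it (log2 fold change 0.55, SE 0.20; limma adjusted p = 0.271; exact permutation p = 0.114). The difference in *Notum* was 0.76 without mutant 3 (limma adjusted p = 0.0300), 0.32 with the enamel genes as covariate (0.389) and 0.38 with the epithelial markers (0.541). *Notum* overlaps *Notumos* on the opposite strand, and the sources used here do not say whether strand was used in counting.

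*Dkk2*, whose product binds Lrp5 and Lrp6 and blocks the co-receptor, went the other way, with 59.8, 49.3, 40.0 and 44.9 in controls and 40.0, 38.2, 27.3 and 33.8 in mutants. Mutant 1 and control 3 lay side by side, and otherwise the mutants were below the controls (log2 fold change -0.47, SE 0.15; limma adjusted p = 0.177; exact permutation p = 0.0571). When 3 enamel genes (*Amelx*, *Ambn*, *Enam*) entered the model as covariate, the difference was -0.64 and passed the threshold (limma adjusted p = 0.0148). *Dkk1*, a co-receptor inhibitor of the same kind, ranged from 29.7 to 44.1 in controls and from 25.02 to 39.6 in mutants.

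The remaining antagonist genes did not separate the groups. *Sfrp4* was at 44.6 in control 2 against 3.34 to 15.2 in the other controls and 2.09 to 9.84 in mutants, which gave the widest 95% interval of the Wnt genes, from -2.46 to 0.50. *Sfrp2* was also highest in control 2, at 61.6, against 17.7 to 32.2 in the other controls and 24.7 to 55.8 in mutants. *Sfrp5* reached 38.2 in mutant 1 and lay between 17.3 and 24.8 in all other libraries. *Frzb*, which belongs to the same family of Frizzled-like proteins, ranged from 48.0 to 68.5 and from 51.2 to 64.9, and *Dkk3* from 100.2 to 144 and from 108 to 153. *Dkk4* had 30 estimated reads in control 3 and 0 in each of the other 7 libraries. The median of the 10 antagonist genes tested was 0.12. Their log2 fold changes were positive for 6 of 10, also under both other scalings, beside 54.1% of all genes tested. They were positive for 3 of 10 with array weights (median -0.14) and for 5 of 10 without control 1 (0.00) or mutant 1 (0.05), and without mutant 3 the median was 0.04. The median was 0.20 without mutant 4 and 0.19 with either the enamel genes or the epithelial markers as covariate.

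R-spondins bind the receptors Lgr4, Lgr5 and Lgr6 and hold back Znrf3 and Rnf43, the ubiquitin ligases that clear Frizzled from the cell surface, and so strengthen a Wnt signal. *Lgr6* read 37.8, 43.1, 45.5 and 33.0 in controls and 68.6, 69.2, 63.6 and 66.1 in mutants. The mutants lay close together, and the lowest of them was well above the highest control. The control mean was 39.9 ± 5.62 (SD, n = 4) and the mutant mean 66.9 ± 2.57 (SD, n = 4), 1.68 times as high, and the log2 fold change was 0.74 (95% interval 0.52 to 0.96; limma adjusted p = 0.00666; exact permutation p = 0.0286). *Lgr6* lies at chr1:134983301-135105276 of mm10 on the minus strand, and GENCODE lists no other gene within it.

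The rise in *Lgr6* passed the threshold in 21 of 23 alternative settings, with log2 fold changes from 0.65 to 0.81. It kept its size but not its call with the epithelial markers as a covariate (0.71, limma adjusted p = 0.0785) and without controls 3 and 4 and mutant 3 (0.74, adjusted p = 0.103), both chosen after seeing the data.

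The other receptors of this axis gave no such difference. *Lgr4* ranged from 53.8 to 61.5 in controls and from 55.4 to 76.9 in mutants, and *Lgr5*, a stem cell marker in several epithelia, from 0.778 to 1.24 and from 0.815 to 1.69. Per kb of exon the means were 10.4 for *Lgr4*, 7.79 for *Lgr6* and 0.112 for *Lgr5*.

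Among the R-spondin genes, *Rspo4*, known for its need in nail formation, averaged 285 per kb of exon, *Rspo2* 10.6, *Rspo1* 2.01 and *Rspo3* 0.200. *Rspo4* read 833, 602, 431 and 549 in controls and 429.8, 983, 804 and 779 in mutants. Its highest and lowest libraries were both mutants (log2 fold change 0.29, 95% interval -0.31 to 0.88; limma adjusted p = 0.766), and the alternatives gave -0.37 to 0.53. *Rspo4os* lies on the opposite strand. *Rspo2*, a gene of limb and craniofacial growth, read 72.2, 53.7, 51.8 and 37.8 in controls and 36.3, 71.9, 34.3 and 74.7 in mutants. Mutants 1 and 3 were low and mutants 2 and 4 high, so that the mean difference of -0.04 had a 95% interval of -0.69 to 0.60 (limma adjusted p = 0.977) and ranged from -0.68 to 0.45 over the alternatives.

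*Rspo1* ranged from 2.81 to 4.66 in controls and from 3.05 to 4.66 in mutants, and *Rspo3* had 21 to 60 and 17 to 61 estimated reads. *Znrf3* ranged from 31.7 to 41.1 and from 31.2 to 44.3. *Rnf43* ranged from 13.1 to 19.7 in controls and from 10.9 to 15.8 in mutants (log2 fold change -0.34, SE 0.17; limma adjusted p = 0.452), and its highest controls were 3 and 4.

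*Ctnnb1*, which encodes β-catenin, a protein of cell adhesion as well as of Wnt signalling, had the highest mean signal of all 57 genes per kb of exon (342). It read 1716, 1892, 1822 and 1901 in controls and 1868, 1678, 1583 and 1752 in mutants, with overlap (log2 fold change -0.09, 95% interval -0.31 to 0.12; limma adjusted p = 0.803; -0.13 to -0.01 over the alternatives).

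Its DNA-binding partners *Tcf7*, *Tcf7l1* and *Tcf7l2* had positive log2 fold changes under all alternatives. *Tcf7l2* read 29.5, 26.2, 26.9 and 28.7 in controls and 42.1, 40.1, 37.0 and 33.1 in mutants, and all mutants lay above all controls. Controls averaged 27.8 ± 1.54 (SD, n = 4) and mutants 38.1 ± 3.93 (SD, n = 4), 1.37 times as high, and the log2 fold change was 0.44 (95% interval 0.24 to 0.63; limma adjusted p = 0.0388; exact permutation p = 0.0286). Over 23 alternatives the log2 fold change lay between 0.31 and 0.50, but 13 of them, among them a replicate block (0.160) and leaving out any library except mutant 4, gave an adjusted p over 0.05. The highest was 0.430, without controls 3 and 4 and mutant 3. *Tcf7l2* lies at chr19:55741810-55933654 of mm10 on the plus strand and overlaps *Ppnr* on the same strand.

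*Tcf7*, which encodes Tcf1, an activator and itself a Wnt target in many cells, read 118, 118, 124 and 97.8 in controls and 153, 190.0, 119.9 and 173 in mutants. Mutant 3 lay among the controls and the other mutants lay above them (log2 fold change 0.46, SE 0.14; limma adjusted p = 0.154; exact permutation p = 0.0571). The difference was 0.59 without mutant 3 (limma adjusted p = 0.0350), 0.29 with the epithelial markers as a covariate (0.469) and 0.32 with the enamel genes (0.252). *Tcf7l1*, which encodes Tcf3, mostly a repressor, read 58.5, 53.9, 52.2 and 51.0 in controls and 60.5, 79.4, 57.1 and 65.4 in mutants. The lowest mutant lay just under the highest control (log2 fold change 0.27, SE 0.10; limma adjusted p = 0.281; exact permutation p = 0.0571). It was 0.08 with the epithelial markers (adjusted p = 0.7598), and 0.18 both with the enamel genes and without mutant 2. *Gm26551* overlaps *Tcf7* and *Gm37736*, among others, overlaps *Tcf7l1* on the same strand.

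*Lef1* and *Axin2*, a partner and a feedback gene that are much used as readouts of Wnt activity, lay outside the rule for named genes and were added after their values were seen. *Lef1* read 13.3, 16.2, 19.7 and 13.9 in controls and 18.6, 14.6, 12.5 and 14.3 in mutants, entirely overlapping (log2 fold change -0.07, 95% interval -0.40 to 0.27; limma adjusted p = 0.927). Per kb of exon, *Tcf7* averaged 52.1, *Tcf7l1* 15.2, *Tcf7l2* 3.75 and *Lef1* 1.75, so that the partner gene that passed the test was neither the highest nor the lowest.

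**Figure D3:**
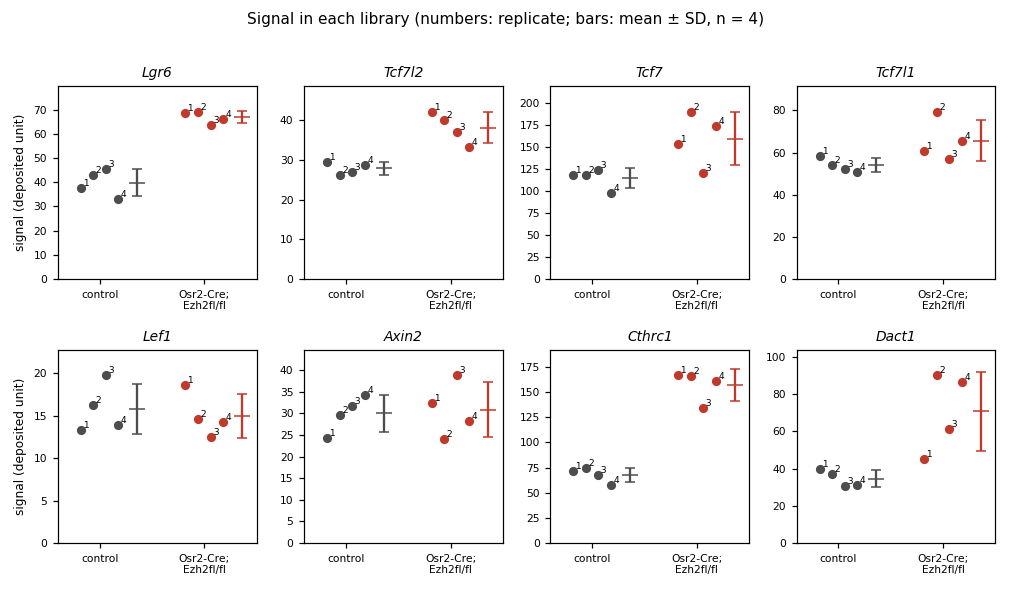
Signal (y axis, deposited unit) in each library for 8 genes of the pathway; numbers give the replicate and bars the mean ± SD of 4 libraries. *Lgr6*, *Tcf7l2*, *Cthrc1* and *Dact1* lie higher in all 4 mutants than in all 4 controls, *Tcf7* and *Tcf7l1* overlap in part, and *Lef1* and *Axin2* overlap fully.

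The 4 feedback and scaffold genes had log2 fold changes between -0.01 and 0.09. *Axin2*, which encodes an inducible Axin and is a direct β-catenin target, read 24.2, 29.7, 31.8 and 34.3 in controls and 32.5, 24.0, 38.8 and 28.3 in mutants. The lowest and the highest value were both mutants (log2 fold change 0.03, 95% interval -0.31 to 0.37; limma adjusted p = 0.969). *Axin1*, the constant scaffold of the destruction complex, read 77.1, 78.9, 75.1 and 81.3 and then 72.8, 84.2, 77.6 and 76.0, the narrowest interval of the Wnt genes (-0.15 to 0.14; limma adjusted p = 0.977).

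*Nkd1*, whose product binds Dishevelled and dampens the signal, read 46.6, 51.6, 46.0 and 45.2 in controls and 54.7, 53.4, 42.3 and 52.4 in mutants. Mutant 3 was the lowest library and the other 3 mutants were above the controls (log2 fold change 0.09, 95% interval -0.11 to 0.30; limma adjusted p = 0.798). The difference was 0.17 without mutant 3 (adjusted p = 0.260), 0.05 without mutant 1 and 0.01 with the enamel genes as covariate. Its relative *Nkd2* ranged from 23.2 to 29.6 in controls and from 23.2 to 29.5 in mutants. These intervals leave room for small changes, and a p over the threshold does not show equal levels.

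Mutant 3 was the lowest mutant for 4 of the 5 genes of β-catenin and its partners and for 4 of the 10 antagonist genes tested. It was the highest mutant for 0 and 2 of these. Of the 12 ligand genes tested it was lowest for 0 and highest for 5. Of the 12 receptor genes it was lowest for 4 and highest for 3, and of the 4 feedback and scaffold genes 1 and 2. It also had the lowest *Ezh2* value and, of the mutants, the highest ameloblast sum. Whether these are connected was not tested.

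Other genes of the pathway were taken from lists by function: the destruction complex, nuclear cofactors, extracellular modulators, planar polarity and Wnt5a receptors, intracellular antagonists, and transcriptional targets. These lists were chosen with earlier results of these data known, so their shares beside those of all genes are descriptive only. Of 84 such genes, 80 were in the table and 76 were tested. Of these, 3 rose and 0 fell at an adjusted p under 0.05 (with voom, 1 and 0), which is 3.95% and 0% beside 1.56% and 0.512% of all genes. At an unadjusted limma p under 0.05, 12 were higher and 9 lower, or 15.8% and 11.8% beside 8.27% and 4.87%, and a difference from other genes was not tested. The 12 include *Sp5* and *Sost*, which were tested only because the mutants reached the filter, so this share is raised by the difference itself. The median log2 fold change of the 76 genes was -0.01.

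*Cthrc1*, which encodes a secreted glycoprotein linked to Wnt5a and Ror2 signalling and to matrix-forming cells, read 71.2, 74.4, 68.0 and 58.1 in controls and 167, 166, 134 and 161 in mutants. Each mutant was far above each control. Controls averaged 67.9 ± 7.07 (SD, n = 4) and mutants 157 ± 15.5 (SD, n = 4), and the log2 fold change was 1.20 (95% interval 0.97 to 1.42; limma adjusted p = 0.000769), past the threshold in all 23 alternatives run, with adjusted p from 6.07e-06 to 0.0233.

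*Dact1*, whose product binds Dishevelled, read 39.7, 36.9, 30.8 and 31.2 in controls and 45.3, 90.0, 61.4 and 86.6 in mutants. The mutants were above the controls but differed among themselves, with mutant 1 near the highest control (log2 fold change 0.97, SE 0.20; limma adjusted p = 0.0457). *Ctnnbip1*, which encodes a small protein that keeps β-catenin from Tcf proteins, read 70.1, 71.1, 61.8 and 68.5 in controls and 89.4, 96.3, 78.8 and 92.9 in mutants, with no overlap (log2 fold change 0.39, SE 0.08; limma adjusted p = 0.0418). Both calls were lost in 17 of 23 alternatives, with an adjusted p of up to 0.552 for *Dact1* and 0.275 for *Ctnnbip1*. The log2 fold changes stayed positive, at 0.52 to 1.30 and 0.30 to 0.47.

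Groups did not overlap for 12 of the 80 genes, 10 higher and 2 lower, beside 5.55% and 2.65% of all genes of the table. This count, too, comes from lists chosen with earlier results of these data known. Outside the rule for named genes, the target genes *Sp5* (0.618 to 0.809 in controls, 1.03 to 1.40 in mutants) and *Fst* (10.2 to 17.6 and 20.7 to 22.5) were among the higher, as was *Sost*, which encodes the bone antagonist sclerostin (0.581 to 0.791 and 1.17 to 3.92). *Sp5* and *Sost* reached the filter in the mutants only, so that their place among the genes tested depended on the difference itself. Without a filter the limma adjusted p were 0.0651 for *Sp5*, 0.144 for *Fst* and 0.124 for *Sost*. Of the 7 target genes tested, 4 had a negative log2 fold change, among them *Jag1* (-0.53; limma adjusted p = 0.370). *Kremen1*, a receptor for Dkk proteins (93.0 to 122 and 79.7 to 86.0), and *Daam1*, a formin downstream of Dishevelled (36.7 to 48.5 and 32.9 to 35.9), were the lower, with limma adjusted p of 0.0806 and 0.152. These genes were singled out after their values were seen.

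Markers of cartilage moved in the same direction as *Lgr6*, *Tcf7l2*, *Cthrc1* and *Dact1*. Of 5 cartilage genes, 4 were in the table and 3 were tested, and all 3 rose (*Col2a1*, *Acan* and *Col9a1*, log2 fold changes 1.36, 1.73 and 2.10; limma adjusted p = 0.0235, 0.0101 and 0.00838). The summed signal of the 4 cartilage genes in the table, led by *Col2a1*, was 16.0, 19.5, 13.1 and 14.3 in controls and 31.3, 77.0, 53.2 and 66.0 in mutants. Of these 4, *Comp* stayed at 0.104 to 0.212. Mutant 1 was lowest and mutant 2 highest of the mutants both in this sum and in *Dact1*. In the same mutants, 1 and then 2, *Lgr6* was at 68.6 and 69.2, *Tcf7l2* at 42.1 and 40.1 and *Cthrc1* at 167 and 166. *Ibsp*, which encodes bone sialoprotein, also rose, alone among 5 odontoblast genes of which the other 4 were negative (*Dspp* -1.13, *Phex* -0.98, *Bglap* -0.40, *Dmp1* -0.35), with 82.1 to 141 in controls and 331 to 498 in mutants (log2 fold change 1.87; limma adjusted p = 0.00126). Their part in the Wnt results was not tested.

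Promoters were read for what the 2 genes that rose share in sequence. RefSeq promoters on GRCm38.p6 were matched for 37 of the 57 genes, and the 250 bases before the start were searched on both strands for CTTTGA and CTTTGT, the core letters bound by Tcf and Lef proteins. A match was found for 8 of the 37 genes, or 21.6%, beside 22.0% of the 13001 promoters matched for all genes of the table. Those 8 were *Dkk1*, *Dkk2*, *Frzb*, *Fzd1*, *Fzd7*, *Tcf7l1*, *Wnt11* and *Wnt8b*. Neither *Lgr6* nor *Tcf7l2* had one in this window, which says only that these letters are not in it. CG pairs, which mark the CpG islands where Polycomb complexes are known to gather, numbered 22 in the median Wnt gene (quartiles 13 and 35), 16 over all genes tested (quartiles 9 and 23) and 14 over all genes of the table (quartiles 7 and 22), as a description without a test.

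The upstream stretches of the 2 genes are shown with CG pairs in capitals, for their difference in CG content. That of *Lgr6* holds 16 pairs and lies at chr1:135105277-135105526 on the minus strand; that of *Tcf7l2* holds 30 and lies at chr19:55741560-55741809 on the plus strand. Both lie upstream of the annotated first exon, in no exon of the gene.
Lgr6: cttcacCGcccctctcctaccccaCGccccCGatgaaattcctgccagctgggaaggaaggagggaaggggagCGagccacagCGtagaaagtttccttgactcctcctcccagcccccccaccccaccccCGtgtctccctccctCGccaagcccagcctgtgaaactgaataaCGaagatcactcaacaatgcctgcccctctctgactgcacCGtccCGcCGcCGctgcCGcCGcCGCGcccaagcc
Tcf7l2: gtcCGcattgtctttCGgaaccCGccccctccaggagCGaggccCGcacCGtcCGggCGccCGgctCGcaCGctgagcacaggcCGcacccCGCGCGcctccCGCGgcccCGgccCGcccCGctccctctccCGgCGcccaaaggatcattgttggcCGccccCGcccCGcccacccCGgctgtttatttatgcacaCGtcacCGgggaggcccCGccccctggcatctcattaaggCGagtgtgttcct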

How the data were processed

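RNA-seq of molar mesenchyme was analysed in 8 libraries, 4 per group, with groups and replicate numbers from the sample labels. Per the submitters' processing notes the reads went through CASAVA 1.8.2, STAR 2.5.3a and Partek on mm10; the methods of the study name TopHat and RPKM instead, and the conflict was not settled. The values the authors deposited were taken to be a signal rather than RPKM or counts: they have no length factor, are never 0 and reach the same 75th percentile in each library. Estimated reads (the value over the smallest value of that library, less 1) cover counting error only. The floor was 3 reads.

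Differences were tested with limma 3.58.1 in R 4.3.3 (mean-variance trend) on log2(value + 1), over genes that reached 1 in 4 or more libraries, with Benjamini-Hochberg adjustment over all 14854 genes; such fold changes understate those of low genes. Single genes had two-sided exact permutation tests over 70 arrangements. The model was tested on simulated data. Exon lengths came from GENCODE mouse release 21, in which all 57 names were found. Python 3.11.15, pandas 2.3.3 and matplotlib 3.10.9 were used.

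Values in all libraries were given for Wnt genes with an adjusted p under 0.05 with or without the filter, an unadjusted limma p under 0.05 or groups that did not overlap, for the 2 genes of each role with the highest mean per kb, and for other pathway genes with an adjusted p under 0.05. Marker lists covered mesenchyme, odontoblast, epithelium, ameloblast, endothelium, macrophage and blood, Schwann cell, skeletal muscle and cartilage. The genes and lists were chosen with earlier results of these data known. Alternatives changed the pseudocount, filter, scaling, model, covariates and libraries.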

Additional observations from a re-analysis of the deposited data

Results flagged for a closer look

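In 120 groups of 4 libraries (60 genes, on the scale of log2(signal + 1)), the highest or lowest library was set against the others by Dixon's test, and 4 stood apart. Chance alone gives about 1 in 20, or 6 of 120. *Wnt11* was at 6.29 in control 1 and between 9.84 and 10.3 in the other controls. *Fzd10* was at 20.6 in mutant 3 and between 37.4 and 41.8 in the other mutants. *Dkk4* was at 0.533, or 30 estimated reads, in control 3, and between 0.0134 and 0.0174, or 0 reads, in the other controls. *Cthrc1* was at 134 in mutant 3 and between 161 and 167 in the other mutants, and its call held without mutant 3.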

How the results depend on the processing

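The log2 fold changes of 24 named genes were recomputed under 23 alternatives. Of 551 values, 470 kept their direction and their side of the threshold, 49 lost a call, 15 gained one (mostly with array weights) and 17 changed sign. Alternatives marked as added were chosen after seeing the data: the 10 epithelial markers as a covariate, controls 3 and 4 and mutant 3 left out, and voom without a filter.

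Wnt genes called higher numbered 2, with 1 at a filter of 10, 1 with *Amelx*, *Ambn* and *Enam* as a covariate, 1 with *Xist* as a covariate, 0 with the epithelial markers, 0 without the 3 libraries, and 11 with array weights, which gave mutant 4 a weight of 9.66 and mutant 3 one of 0.206. Leaving out 1 library gave 1 to 3. Over all genes tested, the main fit called 232 higher. The epithelial markers gave 47, the fit without the 3 libraries 8, and array weights 2165. Wnt genes called lower numbered 0, with 1 (*Dkk2*) with the *Amelx* covariate and 16 with array weights. At an unadjusted limma p, 7 higher became 14 with array weights, 4 without the 3 libraries and 4 to 8 without 1 library; 5 lower became 20, 3 and 3 to 9. The 3 other pathway genes called higher became 1 at a filter of 10, with median-of-ratios scaling, without the trend, with voom with or without a filter, with each of the 3 covariates and without the 3 libraries, 21 with array weights and 1 to 3 without 1 library. The 0 called lower became 16 with array weights and 0 to 2 without 1 library (2 without control 1). Among all 14854 genes tested, array weights called 2165 higher and 1875 lower. At an unadjusted limma p under 0.05 these were 3272 and 2773.

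With a replicate block, Wnt genes called higher numbered 1 (*Lgr6*) and other pathway genes called higher 1 (*Cthrc1*). Same-numbered libraries deviated together for 1 of 4 numbers (correlations of -0.34, -0.08, 0.22 and -0.43 across genes), and the labels give no pairs, so the samples were not treated as paired. The methods give n = 4 per group but speak of 3 pairs in 1 place, which was not settled.

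Changes of sign, none of them in a called gene, were 0.15 for *Wnt10a* and -0.37 for *Rspo4* with the epithelial markers; -0.0252 for *Porcn*, 0.0333 for *Fzd2*, 0.0520 for *Fzd7* and 0.45 for *Rspo2* with array weights; and -0.0214 for *Porcn* and -0.0364 for *Rspo4* without the 3 libraries. Without 1 library, *Porcn* ranged up to 0.134 and reached -0.00904 (mutant 1) and -0.00103 (mutant 3). *Fzd2* ranged from -0.165 to 0.0160 (mutant 3). *Rspo2* ranged from -0.225 up and reached 0.107 (control 1), 0.115 (mutant 1) and 0.142 (mutant 3), and *Axin1* ranged from -0.0483 up and reached 0.0098 (control 4), 0.0206 (mutant 1) and 0.00016 (mutant 4). The cause was not tested. Fewer libraries or genes also change what a fit can call.

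With 4 libraries a group, the median standard error of the Wnt genes was 0.14 on the log2 scale, so that many smaller differences could not be detected. *Wnt3*, *Wnt8b*, *Dkk4* and *Rspo3* did not pass the filter, and without it their adjusted p were 0.839, 0.431, 0.729 and 0.925. Estimated reads rest on an offset inferred from the values. Of values under 20 times the smallest of their library, 61.2% gave a whole number of reads to within 0.01. The numbers of reads are therefore approximate.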

Other observations

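The remaining marker lists gave these values. Of 5 odontoblast genes, *Ibsp* rose and 4 had negative log2 fold changes, among them *Dspp*, which encodes the main non-collagen protein of dentin, at 1329, 2091, 2799 and 2334 in controls and 770.2, 556, 2328 and 799 in mutants (log2 fold change -1.13; limma adjusted p = 0.256). Mutant 3 was within the control range and the other 3 mutants below it. All 5 endothelial genes were negative (median -0.24) with 0 called, and their sum was 317 to 356 in controls and 279 to 303 in mutants. Of 10 mesenchymal genes, 0 were called, 4 were negative (*Vim*, *Col1a1*, *Col1a2* and *Pdgfra*), the mean sum was 15708.6 in controls and 13929.7 in mutants, and *Runx2*, *Prrx1* and *Twist1* were higher in all mutants than in all controls (limma adjusted p = 0.0678, 0.0599 and 0.118). For macrophage and blood, Schwann cell and skeletal muscle genes 0 were called. The macrophage and blood sum was 577 in mutant 3 and between 265 and 428 in all other libraries. The muscle sum was 41.8 in control 4 and at most 9.48 elsewhere.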
